A study of Homo sapiens with 6 samples.

Results

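The endoplasmic reticulum (ER) chaperones and the unfolded protein response were followed through 40 genes, chosen by name from the 58884 genes of the deposited table. They comprised 10 genes of the HSP70 and HSP90 chaperone system, 2 lectin chaperones, 8 disulfide and proline isomerases and oxidases, 6 stress sensors and transcription factors, 10 genes of ER-associated degradation, and 4 of the translocon and export coat. No symbol was duplicated. RNA was sequenced from DBTRG, a single established human glioblastoma line labelled wild type in every sample, after 5 days in a soft gel (3D) or on a rigid dish (2D). There were 3 libraries per group, and no agent, stress inducer or time course was labelled in either.

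The ER folds secreted and membrane proteins. HSPA5 (BiP) holds unfolded chains and binds the luminal parts of the stress sensors. When unfolded proteins accumulate, ERN1 (IRE1) splices the XBP1 transcript, EIF2AK3 (PERK) phosphorylates the translation factor eIF2alpha, which favours translation of ATF4, and ATF6 is cleaved in the Golgi to release a transcription factor. Their targets are chaperones, degradation factors and parts of the secretory route. Counts per gene measure neither the splicing of XBP1 nor the cleavage or phosphorylation of a protein.

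The libraries held 20911340 to 25901465 counts. The first principal component (59.2% of the variance) separated the groups, and the second (17.3%) set rigid dish 1 apart, at 45.9 against -4.50 and -24.8 for the other rigid dish libraries and -23.4 to 6.32 for the soft gel libraries. Mitochondrially encoded genes took 7.94% to 9.47% of counts in soft gel and 4.55% to 5.10% on the rigid dish; whether this bears on the results was not tested. Of the glial and glioma markers, VIM averaged 2233 TPM in soft gel and 2930 TPM on the rigid dish, and SOX2 56.6 and 35.6 TPM. GFAP averaged only 0.843 TPM in soft gel and 0.67 TPM on the rigid dish, and OLIG2 was at 0 in every library. Of 14 markers of other cell types, 5 were expressed enough to be tested. The list summed to 89.0 to 110.9 TPM in soft gel and 71.2 to 75.3 TPM on the rigid dish, with DCN at 0 and PTPRC at 0.133 and 0.123 TPM. CD68, a lysosomal protein used as a macrophage marker, had 38.6, 43.3 and 35.1 TPM in soft gel and 11.3, 8.81 and 11.9 TPM on the rigid dish. CD14, another macrophage marker, averaged 0.33 and 0.22 TPM. KRT8 went the other way, at 17.8 TPM in soft gel and 24.6 TPM on the rigid dish. MBP averaged 37.4 and 36.25 TPM, LUM 1.99 and 0.79 TPM, and SYT1 0.737 and 0.553 TPM. The part of this list in the results was not tested. In bulk RNA, fewer cells expressing a gene and less of its RNA per cell cannot be told apart.

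Levels between genes were compared in deposited TPM, which divides by a length per gene that was not stated. The lectin chaperone CALR was the most abundant of the 40 genes in soft gel, at 1002 ± 80.0 TPM there and 967 ± 363 TPM on the rigid dish (SD, n = 3 each). P4HB, a protein disulfide isomerase, followed at 716 ± 57.3 and 777 ± 25.4 TPM, and HSP90B1 (GRP94) at 518 ± 147 and 439 ± 215 TPM. HSPA5 averaged 350.5 ± 25.5 TPM in soft gel and 461 ± 47.5 TPM on the rigid dish. In soft gel 12 of the 40 genes averaged 100 TPM or more. They were chaperones, isomerases and translocon subunits, with MANF, a cofactor of HSPA5, and HERPUD1 of the degradation machinery. The sensors were far below them. ATF6 averaged 9.89 ± 0.677 TPM in soft gel and 8.31 ± 0.786 TPM on the rigid dish, EIF2AK3 8.71 ± 0.595 and 5.57 ± 3.04 TPM, and ERN1 3.96 ± 0.599 and 3.56 ± 0.651 TPM. DERL3, a derlin of ER-associated degradation, was listed at 0.25 to 0.37 TPM in soft gel and 0.28 to 0.74 TPM on the rigid dish and was too low to test. Neighbours in the order of levels overlapped between libraries in 28 of 39 pairs in soft gel and in 34 of 39 pairs on the rigid dish, so the fine order was not resolved.

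**Figure D1:**
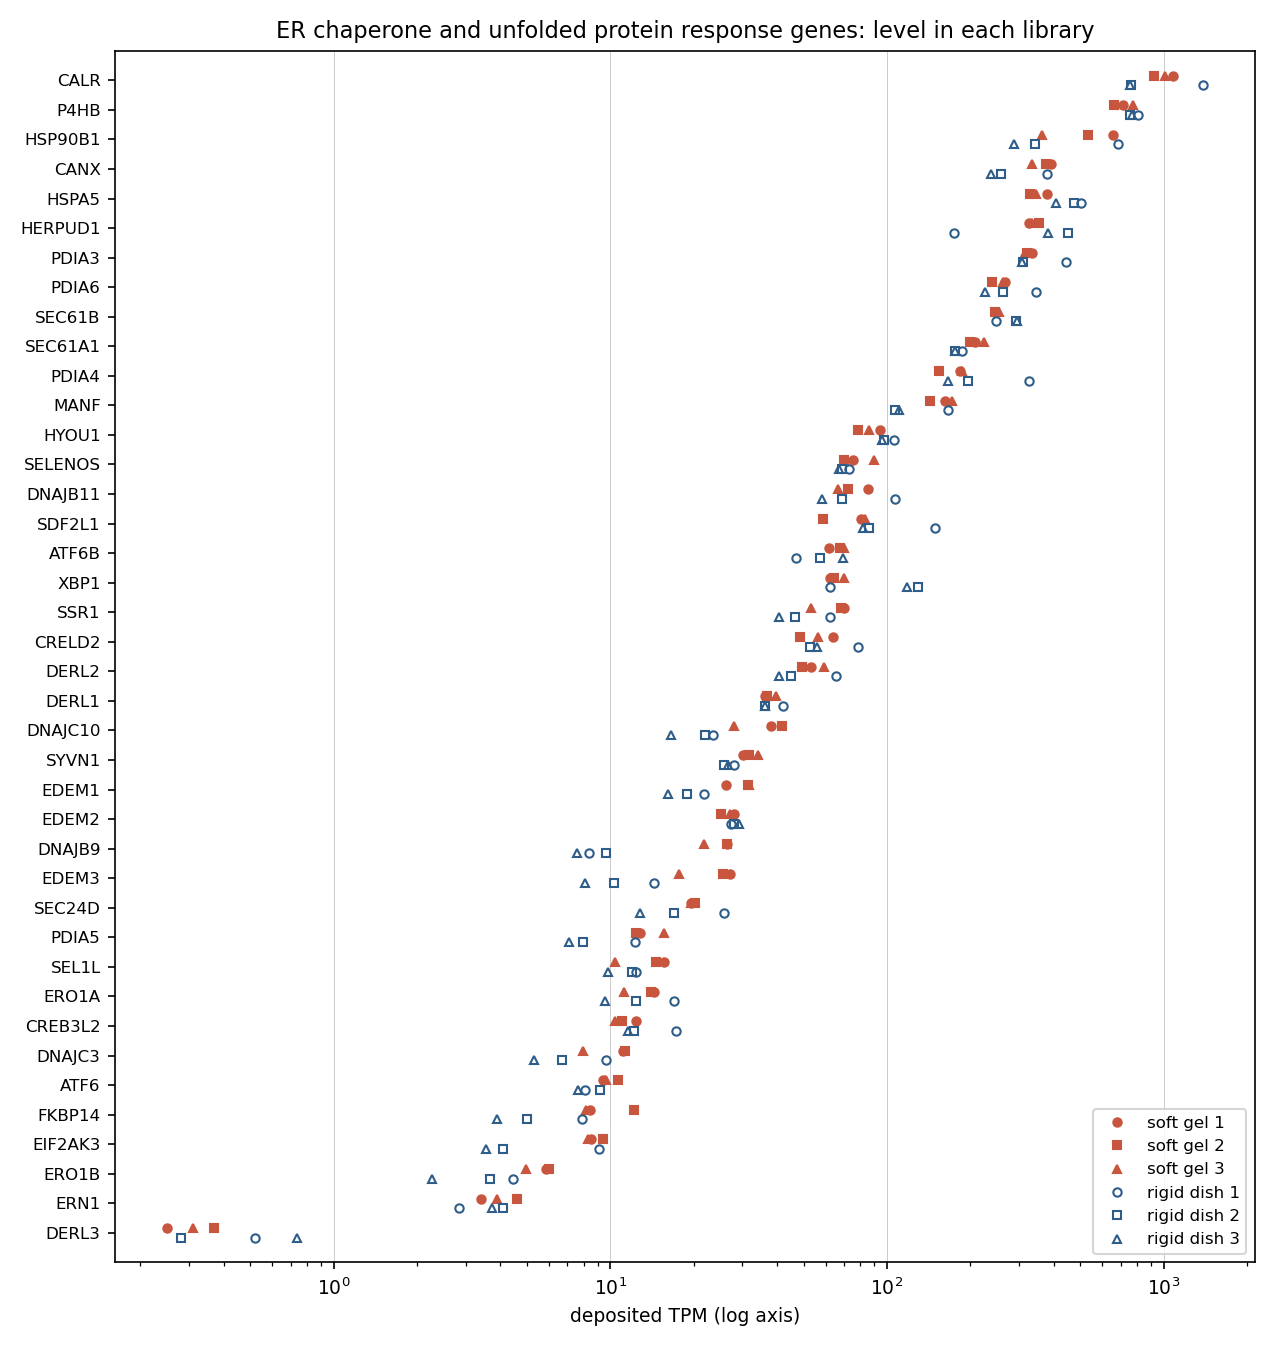
Deposited TPM (log axis) of the 40 genes in each of the 6 libraries, ordered by their soft gel mean, with filled symbols for soft gel, open symbols for the rigid dish, and circle, square and triangle for libraries 1, 2 and 3. CALR heads the list at 1002 TPM in soft gel, DERL3 ends it at 0.31 TPM, and the circle of rigid dish 1 lies far to the left for HERPUD1 and to the right for PDIA4 and SDF2L1.

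The genes did not move as a block. The degradation genes EDEM3 and EDEM1, the co-chaperones DNAJB9 and DNAJC10, the sensor EIF2AK3 and the folding enzymes FKBP14 and ERO1B were higher in soft gel. The chaperones HSPA5 and HYOU1 and the transcription factor CREB3L2 were lower. Of the 39 genes tested, 7 were higher and 3 lower by edgeR's quasi-likelihood test at a Benjamini-Hochberg adjusted p below 0.05 over all genes, and 29 did not pass. These 10 calls are 25.6% of the 39, against 28.6% of all 16098 genes tested (15.4% higher and 13.2% lower). The share called was thus close to that of all genes. Of the 10 calls, only those of DNAJB9, EDEM3 and EDEM1 held under all 16 alternative settings. The groups did not overlap in CPM (counts scaled to library size, with TMM factors) for 15 of the 39 genes (38.5%), against 44.6% of all genes. Of these, 10 were higher and 5 lower in soft gel, against 23.5% and 21.1% of all genes. The median log2 fold change, soft gel over rigid dish, was 0.09 for the 39 genes and 0.05 for all genes. Summed over the 40 genes, the level was 5922, 5396 and 5515 TPM in soft gel and 6686, 5285 and 4966 TPM on the rigid dish, and the groups overlapped.

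The split of the calls depended on the setting. With upper quartile factors 8 genes were higher and 1 lower (23.1% of the 39, against 28.6% of all genes). DESeq2 gave 7 higher and 6 lower (33.3% of the 39, against 32.9% of all genes). In the authors' deposited comparison, 7 members were higher and 6 lower at an adjusted p below 0.05. Of its 29386 genes with an adjusted p, 7.87% were higher and 9.26% lower (17.1% in all). That set is larger than the 16098 genes tested above, so its shares are not comparable with the others. In the authors' deposited table, XBP1 (log2 fold change -0.76, adjusted p = 0.00582), SDF2L1 (-0.58, adjusted p = 0.0157) and PDIA4 (-0.47, adjusted p = 0.0228) joined the lower genes. Leaving out rigid dish 1 gave 12 genes higher and 5 lower, 43.6% of the 39 against 37.2% of all genes (19.6% higher and 17.7% lower). Leaving out rigid dish 2 or soft gel 2 left 3 genes higher and 0 lower by edgeR (7.69% of the 39, against 12.2% and 11% of all genes). At an unadjusted p below 0.05, 5 and 3 genes were lower there. Without soft gel 1 there were 4 higher and 1 lower (12.8%, against 11.9% of all genes). Without rigid dish 3 there were 3 higher and 4 lower (17.9%, against 19.1%), and without soft gel 3 there were 8 higher and 4 lower (30.8%, against 32.2%). The number of calls among all genes thus moved with the same settings.

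**Figure D2:**
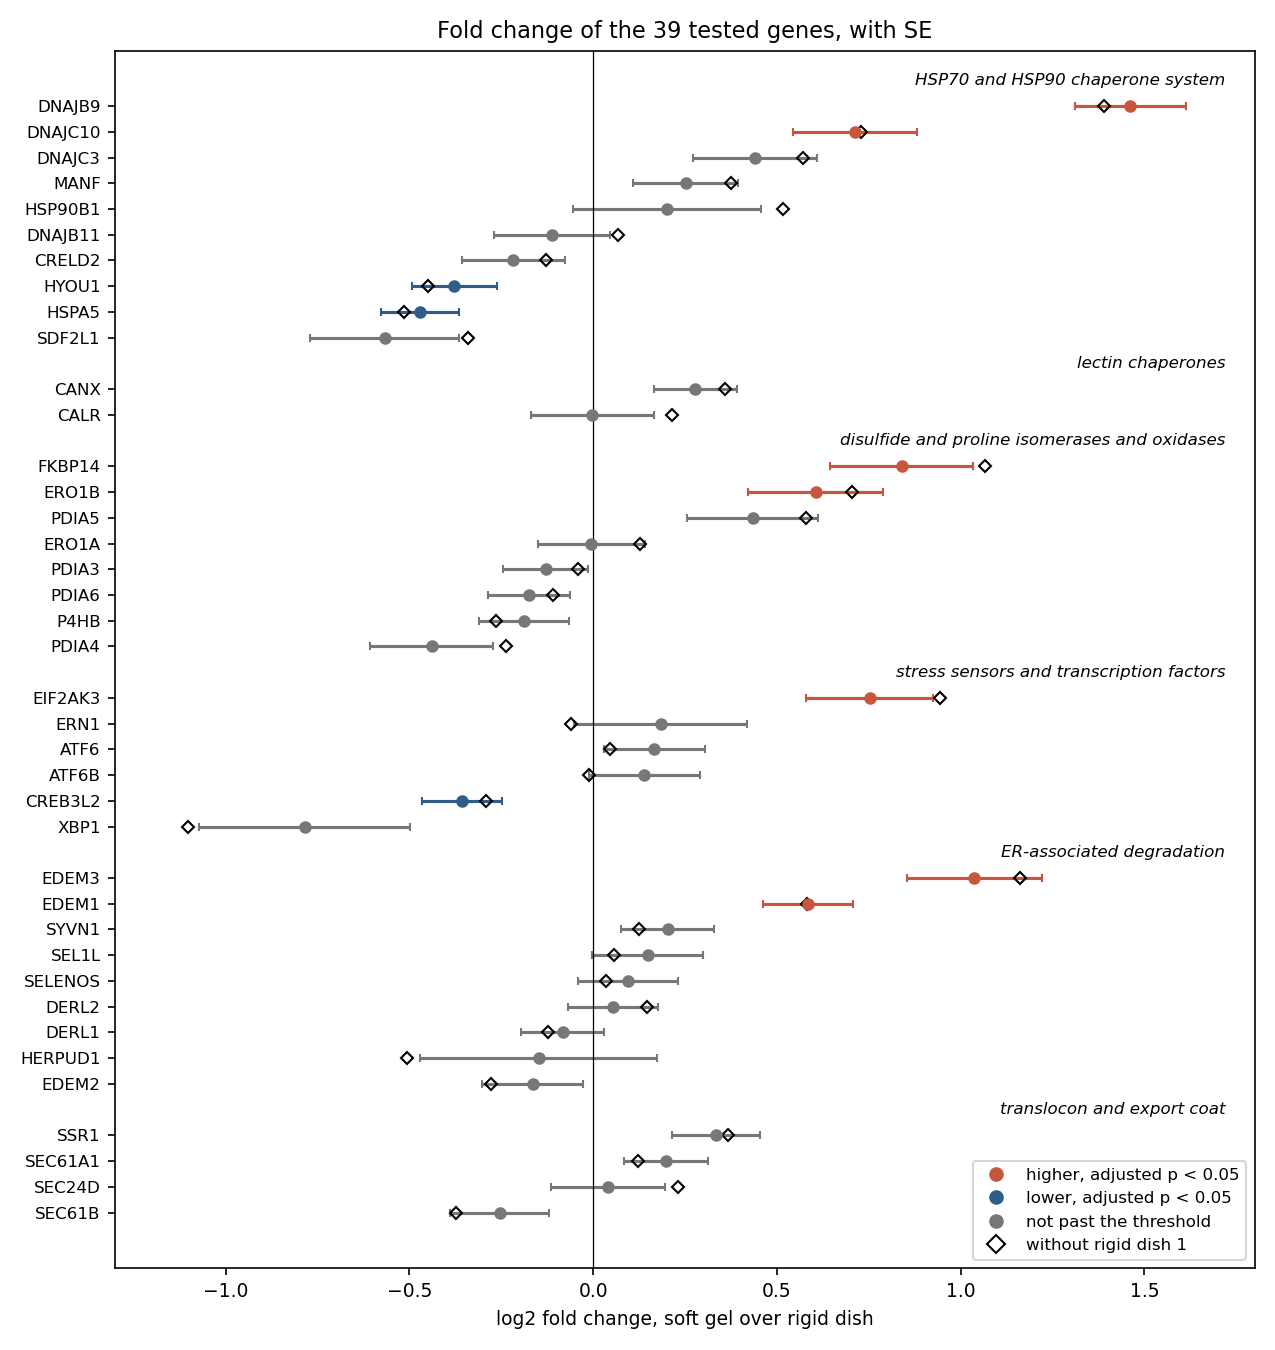
Log2 fold change, soft gel over rigid dish (x axis), of the 39 tested genes by role, with bars for the SE and open diamonds for the value without rigid dish 1. Red points passed the threshold upward (7 genes), blue points downward (3 genes) and grey points did not pass; the diamonds of XBP1 and HERPUD1 lie far to the left of their points.

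Many genes of this response carry the ER stress response element (ERSE) in their promoters, the blocks CCAAT and CCACG separated by 9 bases, and some carry ERSE-II, ATTGG and CCACG separated by 1 base. In ER stress ATF6 binds these elements together with NF-Y, which reads the CCAAT box. The promoters of HSPA5 and XBP1 are shown because both genes are classical ERSE targets and differ in how their libraries behave. Both stretches are the 150 bases before the RefSeq start (GRCh38.p14), on the minus strand, at chr9:125241344-125241493 and chr22:28800570-28800719, with both ERSE blocks in capitals. The element ran from 66 to 48 bases before the start of HSPA5 and from 52 to 34 bases before that of XBP1.
HSPA5: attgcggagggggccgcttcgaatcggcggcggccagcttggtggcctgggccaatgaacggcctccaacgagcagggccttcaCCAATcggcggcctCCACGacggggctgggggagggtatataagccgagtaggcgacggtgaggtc
XBP1: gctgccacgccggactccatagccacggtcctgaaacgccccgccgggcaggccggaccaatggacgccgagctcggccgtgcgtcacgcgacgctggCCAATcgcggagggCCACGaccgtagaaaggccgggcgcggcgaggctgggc

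The table of promoters, 250 bases before to 50 after each RefSeq start, held 35 of the 40 genes; SEC24D, DERL3, PDIA3, DERL1 and FKBP14 had no entry. On either strand, an exact ERSE was present in 7 of the 35, against 22 of 27305 promoters (0.0806%). The single copies stood in the same orientation as the gene for HSPA5, XBP1 and CANX and in the opposite orientation for CALR, CRELD2 and ERO1B, and HSP90B1 had a copy in each. The sites are shown so that the spacer, which differs in every copy, can be compared, with CCAAT and CCACG in capitals.
HSPA5, chr9:125241391-125241409, minus strand: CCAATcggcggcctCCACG
XBP1, chr22:28800603-28800621, minus strand: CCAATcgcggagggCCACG
HSP90B1, chr12:103930216-103930234, plus strand: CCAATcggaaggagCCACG
HSP90B1, chr12:103930321-103930339, minus strand: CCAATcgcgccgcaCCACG
CALR, chr19:12938384-12938402, minus strand: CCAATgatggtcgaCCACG
CANX, chr5:179698778-179698796, plus strand: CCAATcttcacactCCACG
CRELD2, chr22:49918554-49918572, minus strand: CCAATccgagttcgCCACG
ERO1B, chr1:236282183-236282201, plus strand: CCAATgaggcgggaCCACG

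ERSE-II was present in 3 of the 35 promoters (8.57%), against 15 of 27305 (0.0549%). They were HYOU1, which had 2 copies with the same letters, SDF2L1 and HERPUD1. ATTGG is the CCAAT box read on the other strand, so an ERSE-II also counts as a CCAAT box. A CCAAT box alone was in 28 of the 35 and in 35.7% of all promoters, and the core TGACGTGG, which XBP1 protein binds, in 2 of the 35 (HYOU1 and DNAJC10) and 0.795% of all. These elements were described from genes of this kind, so their frequency here is a description.
HYOU1, chr11:119057274-119057284, plus strand: ATTGGaCCACG
SDF2L1, chr22:21642114-21642124, minus strand: ATTGGtCCACG
HERPUD1, chr16:56932025-56932035, plus strand: ATTGGgCCACG

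The 7 genes with an ERSE did not share a direction. ERO1B was higher, HSPA5 lower, and the other 5 did not pass. Their median log2 fold change was -0.002, against 0.14 for the 28 genes without the element, of which 5 were higher and 2 lower. The median over the 15 tested genes of the whole table with an ERSE was 0.03. Of the ERSE-II holders, HYOU1 was lower and SDF2L1 and HERPUD1 did not pass.

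HSPA5, the central HSP70 of the ER (ENSG00000044574, hg38 chromosome 9, 125234853 to 125241330, minus strand), was lower in soft gel. It had 989, 886 and 962 CPM in the soft gel libraries, against 1242, 1387 and 1302 CPM in the rigid dish libraries. Every soft gel library lay below every rigid dish library. The log2 fold change was -0.47 (SE 0.105, edgeR adjusted p = 0.0121). Without rigid dish 2 (adjusted p = 0.0613) or soft gel 2 (adjusted p = 0.0619) it no longer passed, with the same direction.

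HYOU1, a large HSP70 relative that exchanges nucleotide on HSPA5 (ENSG00000149428, chromosome 11, 119044189 to 119057202, minus strand), had 222, 196 and 232 CPM in soft gel, against 255, 285 and 304 CPM on the rigid dish. The groups did not overlap. Its log2 fold change was -0.38 (SE 0.115, edgeR adjusted p = 0.0377). It did not pass without soft gel 1 (adjusted p = 0.108), soft gel 2 (0.148), rigid dish 2 (0.124) or rigid dish 3 (0.0675), nor by limma on log2(TPM + 1) (0.206) or log2(TPM + 0.1) (0.214). Upper quartile factors also ended the call (edgeR adjusted p = 0.0504).

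DNAJB9 (ERdj4), a J-domain co-chaperone that brings HSPA5 to its clients and to ERN1 (ENSG00000128590, chromosome 7, 108569568 to 108574850, plus strand), had the largest fold change of the 39 genes in this fit. It had 40.4, 38.0 and 32.2 CPM in soft gel, against 12.2, 15.5 and 12.5 CPM on the rigid dish. The lowest soft gel library was above the highest rigid dish library. The log2 fold change was 1.46 (SE 0.151, edgeR adjusted p = 0.000574), and its rank by TPM was 27 in soft gel and 33 on the rigid dish. Its exons share 99 bases with PNPLA8 on the opposite strand (log2 fold change 0.99, adjusted p = 0.00637) and 183 bases with THAP5 (0.27, adjusted p = 0.312). No strand setting of the counting was stated, so reads from the shared bases could belong to either gene.

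DNAJC10 (ERdj5), a co-chaperone with disulfide reductase activity that prepares proteins for degradation (ENSG00000077232, chromosome 2, 182716041 to 182794464, plus strand), had 132, 153 and 94.4 CPM in soft gel, against 79.8, 80.6 and 71.0 CPM on the rigid dish. The groups did not overlap, although soft gel 3 was well below the other soft gel libraries. Its log2 fold change was 0.71 (SE 0.169, edgeR adjusted p = 0.0152). Leaving out rigid dish 2 (0.0547), rigid dish 3 (0.0621), soft gel 1 (0.0627) or soft gel 2 (0.069) ended the call. So did a GC correction (log2 fold change 0.21, adjusted p = 0.13) and a length correction (0.32, adjusted p = 0.0615).

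The other 6 genes of the HSP70 and HSP90 system did not pass. Of all 10, 20% were thus higher and 20% lower, against 15.4% and 13.2% of all genes. HSP90B1, the ER member of the HSP90 family, had 1088, 918 and 634 CPM in soft gel, against 1072, 654 and 570 CPM on the rigid dish. The groups overlapped, and the spread within each was wide (log2 fold change 0.20, SE 0.255, edgeR adjusted p = 0.576). SDF2L1, which keeps HSPA5 clients from aggregating, had 31.6, 24.2 and 35.6 CPM in soft gel, against 58.6, 37.9 and 38.8 CPM on the rigid dish (log2 fold change -0.57, SE 0.202, adjusted p = 0.0617). SDF2L1 was called lower without rigid dish 3 (adjusted p = 0.0442) or soft gel 3 (0.0348), whereas without rigid dish 1 its log2 fold change was -0.34 (adjusted p = 0.124). The co-chaperones DNAJB11 and DNAJC3, the HSPA5 cofactor MANF and the isomerase-like CRELD2 averaged 79.5, 39.5, 104 and 48.3 CPM in soft gel and 85.9, 29.1, 87.2 and 56.1 CPM on the rigid dish, with overlapping groups.

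**Figure D3:**
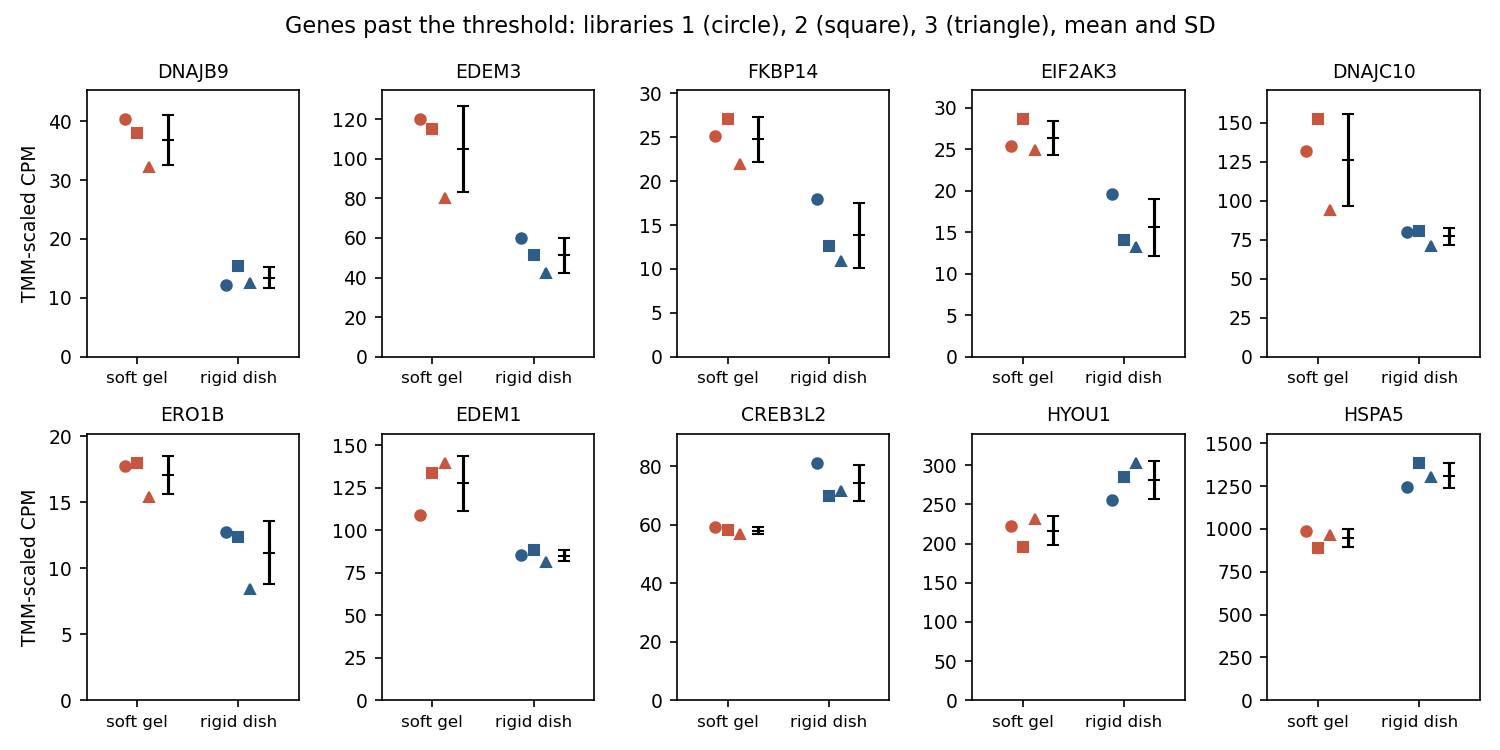
TMM-scaled CPM (y axes from 0) in soft gel (left) and on the rigid dish (right) for the 10 genes past the threshold, with circle, square and triangle for libraries 1, 2 and 3 and bars for the mean and SD. The groups do not overlap in any panel, and the separation is largest in proportion for DNAJB9, at 32.2 CPM or more in soft gel and 15.5 CPM or less on the rigid dish.

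The lectin chaperones CALR and CANX hold glycoproteins that carry a trimmed sugar chain. Neither passed by edgeR or DESeq2, which called 28.6% and 32.9% of all genes. At an unadjusted p below 0.05, 1 was higher. CANX had 1217, 1201 and 1123 CPM in soft gel, against 1090, 922 and 910 CPM on the rigid dish. Its groups did not overlap (log2 fold change 0.28, SE 0.113, edgeR adjusted p = 0.0902), and without rigid dish 1 it was called higher (adjusted p = 0.0162). CALR had 1243, 1100 and 1246 CPM in soft gel, against 1540, 989 and 1065 CPM on the rigid dish, where rigid dish 1 lay above and the other libraries below the soft gel range.

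Among the 8 disulfide and proline isomerases and oxidases, 2 were higher by edgeR (25%, against 15.4% of all genes) and none lower (13.2% of all genes). At an unadjusted p below 0.05 these counts were 3 and 1, and DESeq2 called 2 and 1. FKBP14, a proline isomerase of the ER that acts on collagens (ENSG00000106080, chromosome 7, 30010587 to 30026684, minus strand), had 25.2, 27.1 and 22.0 CPM in soft gel, against 17.9, 12.6 and 10.9 CPM on the rigid dish. Its soft gel and rigid dish values were separate (log2 fold change 0.84, SE 0.194, edgeR adjusted p = 0.0138). Its adjusted p missed the threshold without rigid dish 2 (0.0657), rigid dish 3 (0.0504), soft gel 1 (0.055) or soft gel 2 (0.0647).

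ERO1B, an oxidase that regenerates protein disulfide isomerases (ENSG00000086619, chromosome 1, 236215555 to 236281985, minus strand), had 17.7, 18.0 and 15.4 CPM in soft gel, against 12.8, 12.4 and 8.42 CPM on the rigid dish. All soft gel values exceeded all rigid dish values (log2 fold change 0.61, SE 0.184, edgeR adjusted p = 0.0366). It did not pass without rigid dish 2 (0.0808), rigid dish 3 (0.141), soft gel 1 (0.121) or soft gel 2 (0.125). A GC correction also ended the call (log2 fold change 0.24, adjusted p = 0.201). Its paralog ERO1A averaged 36.7 ± 3.30 CPM in soft gel and 36.8 ± 6.10 CPM on the rigid dish (SD over 3 libraries) and did not pass.

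The abundant disulfide isomerases did not pass either. PDIA4 had 328, 286 and 358 CPM in soft gel, against 557, 395 and 366 CPM on the rigid dish. Its groups were separated by a narrow gap (log2 fold change -0.44, SE 0.168, edgeR adjusted p = 0.0756), and PDIA4 was called lower without rigid dish 3 (adjusted p = 0.0336). Without rigid dish 1 its log2 fold change was -0.24 (adjusted p = 0.131). P4HB, PDIA3 and PDIA6 averaged 1014, 427 and 392 CPM in soft gel and 1155, 467 and 443 CPM on the rigid dish, and PDIA5 averaged 14.4 and 10.6 CPM, all with overlapping groups. A pseudogene copy, PDIA3P1, had 1.14% as many counts as PDIA3.

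Of the 6 sensors and transcription factors, 1 was higher and 1 lower (16.7% each, against 15.4% and 13.2% of all genes). EIF2AK3, the kinase PERK (ENSG00000172071, chromosome 2, 88556741 to 88627576, minus strand), had 25.4, 28.7 and 24.9 CPM in soft gel, against 19.6, 14.1 and 13.2 CPM on the rigid dish. The groups did not overlap in CPM (log2 fold change 0.75, SE 0.172, edgeR adjusted p = 0.0132). The call was lost without rigid dish 2 (0.067), rigid dish 3 (0.0547) or soft gel 2 (0.0633). In deposited TPM the groups overlapped, since rigid dish 1 was high there, and limma on log2(TPM + 1) gave an adjusted p of 0.18.

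CREB3L2 (BBF2H7), a membrane-bound transcription factor of secretory and collagen-producing cells (ENSG00000182158, chromosome 7, 137874979 to 138002067, minus strand), had 59.1, 58.1 and 56.7 CPM in soft gel, against 81.2, 69.7 and 71.6 CPM on the rigid dish. The groups did not overlap (log2 fold change -0.36, SE 0.109, edgeR adjusted p = 0.0374). Leaving out rigid dish 1 (0.0557), rigid dish 2 (0.0893), soft gel 1 (0.113) or soft gel 2 (0.113) ended the call. So did upper quartile factors (edgeR adjusted p = 0.059). By limma on log2(TPM + 1) and log2(TPM + 0.1), CREB3L2 had an adjusted p of 0.407 and 0.394.

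XBP1, the transcription factor made active by ERN1, did not pass (ENSG00000100219, chromosome 22, 28794555 to 28800597, minus strand). It had 66.0, 75.2 and 84.6 CPM in soft gel, against 67.5, 160 and 162 CPM on the rigid dish. Rigid dish 1 lay in the soft gel range, and rigid dish 2 and 3 lay well above it. The log2 fold change was -0.79 (SE 0.286, edgeR adjusted p = 0.0654), and without rigid dish 1 it was -1.10 (adjusted p = 0.000403).

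The remaining sensors did not pass. ERN1 had 14.4, 19.0 and 16.7 CPM in soft gel, against 9.54, 15.98 and 18.7 CPM on the rigid dish (log2 fold change 0.18, SE 0.236, edgeR adjusted p = 0.58). ATF6 had 48.5, 56.7 and 52.9 CPM in soft gel, against 39.3, 53.2 and 48.3 CPM on the rigid dish (log2 fold change 0.17, SE 0.138, adjusted p = 0.381). In both genes the groups overlapped and rigid dish 1 was the lowest library. ATF6B, the ATF6 paralog, averaged 84.9 ± 7.01 CPM in soft gel and 77.1 ± 14.6 CPM on the rigid dish (SD over 3 libraries).

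Of the 9 tested genes of ER-associated degradation, which returns misfolded proteins to the cytosol, 2 were higher by edgeR (22.2%, against 15.4% of all genes). None was lower by edgeR (13.2% of all genes were), at an unadjusted p below 0.05 or by DESeq2. Both called genes belong to the EDEM family, which trims mannose from misfolded glycoproteins. EDEM3 (ENSG00000116406, chromosome 1, 184690231 to 184754913, minus strand) had 120, 115 and 80.2 CPM in soft gel, against 60.1, 51.4 and 42.1 CPM on the rigid dish. EDEM1 (ENSG00000134109, chromosome 3, 5187646 to 5219957, plus strand) had 109, 133 and 140 CPM in soft gel, against 85.6, 88.1 and 81.3 CPM on the rigid dish. Neither gene's groups overlapped. The log2 fold change was 1.04 for EDEM3 (SE 0.183, edgeR adjusted p = 0.00476) and 0.58 for EDEM1 (SE 0.122, adjusted p = 0.00917). Of the 10 called genes, these and DNAJB9 kept their calls under all 16 alternative settings. EDEM2 averaged 31.8 ± 1.76 CPM in soft gel and 35.6 ± 5.29 CPM on the rigid dish (SD over 3 libraries), with overlapping groups.

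HERPUD1, a membrane protein that recruits ubiquitin ligases, is named here after its values were seen. It had 312, 341 and 330 CPM in soft gel, against 163, 476 and 451 CPM on the rigid dish. The soft gel libraries lay close together, between rigid dish 1 below and rigid dish 2 and 3 above. Its log2 fold change was -0.15 (SE 0.322, edgeR adjusted p = 0.753), and without rigid dish 1 it was -0.51 (adjusted p = 0.00391). The ubiquitin ligase SYVN1 (HRD1) had 59.1, 61.9 and 72.0 CPM in soft gel, against 50.2, 55.8 and 61.6 CPM on the rigid dish (log2 fold change 0.20, SE 0.127, adjusted p = 0.249). A GC correction called SYVN1 higher (0.31, adjusted p = 0.0239). Its exons share 398 bases with FAU on the same strand (log2 fold change -0.67, adjusted p = 0.0158). They share 356 bases with MRPL49 on the opposite strand (-0.44, adjusted p = 0.0258). The ligase partner SEL1L, the derlins DERL1 and DERL2 and the selenoprotein SELENOS averaged 64.8, 81.8, 39.9 and 55.9 CPM in soft gel and 58.5, 86.6, 38.4 and 52.3 CPM on the rigid dish, with overlapping groups.

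None of the 4 translocon and coat genes passed by edgeR or DESeq2, which called 28.6% and 32.9% of all genes. At an unadjusted p below 0.05, 1 was higher. SSR1, a subunit of the translocon-associated protein complex, had 109, 122 and 98.2 CPM in soft gel, against 91.5, 89.3 and 79.8 CPM on the rigid dish. Its groups did not overlap (log2 fold change 0.33, SE 0.12, edgeR adjusted p = 0.0625), and it was called higher without rigid dish 1 (adjusted p = 0.0457) and with upper quartile factors (0.0482). The channel subunits SEC61A1 and SEC61B averaged 493 and 54.5 CPM in soft gel and 430 and 65.0 CPM on the rigid dish. For SEC61A1 the groups did not overlap (log2 fold change 0.20, edgeR adjusted p = 0.212). A GC correction called SEC61A1 higher (0.27, adjusted p = 0.0378). Its exons share 344 bases with RUVBL1 on the opposite strand (log2 fold change -0.92, adjusted p = 0.0022). The coat protein SEC24D averaged 48.6 and 47.2 CPM.

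Rigid dish 1 differed from the other rigid dish libraries in many of these genes, in both directions. Its ratio to the mean of rigid dish 2 and 3 had a median of 1.15 over the 39 genes and 0.998 over all genes. It was the highest of all 6 libraries for 11 of the 39 genes (28.2%), against 16.6% of all genes. The ratio was above 1.4 for 8 genes. They were HSP90B1 (1.75), SDF2L1 (1.53), FKBP14 (1.52), CALR (1.499), PDIA4 (1.46), SEC24D (1.44), EIF2AK3 (1.44) and DNAJB11 (1.41). Of these, FKBP14 and EIF2AK3 were called higher in soft gel. The ratio was below 0.5 for XBP1 (0.42) and HERPUD1 (0.351). Without this library, 9 of the 10 calls were kept, CREB3L2 was lost, and CANX, DNAJC3, MANF, PDIA5 and SSR1 were called higher and HERPUD1, SEC61B and XBP1 lower. What sets this library apart was not tested, and the labels name no batch.

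**Figure D4:**
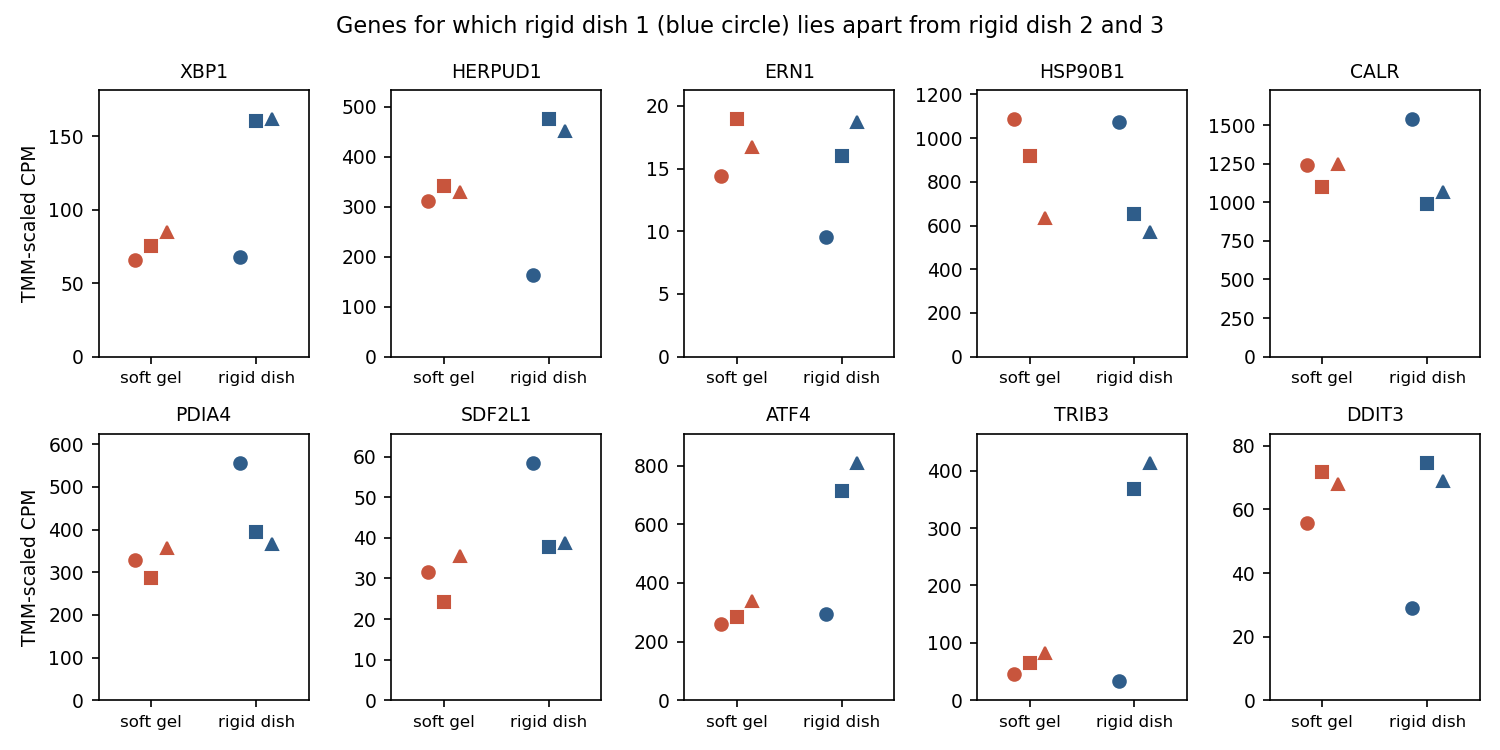
TMM-scaled CPM (y axes from 0) in soft gel (left) and on the rigid dish (right) for 10 genes chosen after their values were seen, with circle, square and triangle for libraries 1, 2 and 3. The circle of rigid dish 1 lies below the other rigid dish libraries for XBP1, HERPUD1, ERN1, ATF4, TRIB3 and DDIT3 and above them for HSP90B1, CALR, PDIA4 and SDF2L1.

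In a list of 14 genes of the PERK and ATF4 arm, ATF4, TRIB3 and DDIT3 showed the same library standing apart. In TPM, rigid dish 1 was also the lowest of the rigid dish libraries for ASNS, CHAC1 and SESN2. For ASNS, soft gel 1 was lower still (33.7 TPM, against 40.1 TPM in rigid dish 1). Not every gene of the list followed: of the rigid dish libraries, rigid dish 1 was the highest for PPP1R15B and EIF2S1. ATF4, the transcription factor translated when EIF2AK3 is active, had 259, 285 and 338 CPM in soft gel, against 296, 714 and 811 CPM on the rigid dish. The groups overlapped through rigid dish 1 (log2 fold change -1.05, SE 0.31, edgeR adjusted p = 0.0335). The call was lost without rigid dish 2 (0.107), rigid dish 3 (0.0749), soft gel 1 (0.115) or soft gel 2 (0.118). Its target TRIB3, a pseudokinase, had 45.2, 65.3 and 82.0 CPM in soft gel, against 33.5, 369 and 414 CPM on the rigid dish. For TRIB3 the log2 fold change was -2.08 (SE 0.693, adjusted p = 0.0498), and without rigid dish 1 it was -2.62 (adjusted p = 8.34e-05). It missed the threshold when any other library was left out (adjusted p = 0.0648 to 0.152). DDIT3 (CHOP), the factor linked to death after prolonged stress, had 55.7, 71.7 and 67.9 CPM in soft gel, against 28.9, 74.8 and 69.0 CPM on the rigid dish. It did not pass (log2 fold change 0.18, SE 0.297, adjusted p = 0.674).

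Of the 14 tested genes of this PERK and ATF4 list, 1 was higher (7.14%, against 15.4% of all genes) and 2 lower (14.3%, against 13.2%), with a median log2 fold change of -0.44. The higher gene was VLDLR, at 117 ± 8.43 CPM in soft gel and 88.4 ± 13.2 CPM on the rigid dish (SD over 3 libraries), and it did not pass when any library was left out (adjusted p = 0.0699 to 0.158). DESeq2 called 0 genes of the list higher and 3 lower. Neither VLDLR (DESeq2 adjusted p = 0.0521) nor TRIB3 (0.067) passed by DESeq2. Without rigid dish 1, 8 were lower (17.7% of all genes were lower in that fit), and the median was -0.81. Summed TPM of the list was 819, 899 and 990 in soft gel and 730, 1844 and 1822 on the rigid dish.

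Further genes of the ER folding and export route, which are not among the 40, mostly did not pass the test. Of 33 other ER folding factors, 9 were higher (27.3%, against 15.4% of all genes) and 1 lower (3.03%, against 13.2%). The cyclophilin PPIC was higher, at 70.0 ± 2.78 CPM in soft gel and 41.4 ± 4.32 CPM on the rigid dish (log2 fold change 0.76, SE 0.118, edgeR adjusted p = 0.00296). UGGT2, of the family that senses misfolded glycoproteins, had a log2 fold change of 0.88, a call lost without rigid dish 2 or 3 or soft gel 1 or 2 (adjusted p = 0.0617 to 0.0789). SERPINH1 (HSP47), the collagen chaperone, was the lower gene, at 19.96 ± 3.09 CPM in soft gel and 33.0 ± 8.79 CPM on the rigid dish (log2 fold change -0.72), a call lost without the same libraries (0.0625 to 0.123). Without rigid dish 1 the counts of this list were 10 higher and 5 lower, where 19.6% and 17.7% of all genes were called.

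Of 20 other degradation genes, 2 were higher (10%, against 15.4% of all genes) and 4 lower (20%, against 13.2%). FAM8A1, a cofactor of SYVN1, was at 39.3 ± 5.26 CPM in soft gel and 19.7 ± 2.29 CPM on the rigid dish (log2 fold change 0.995), and ERLEC1, a lectin of the degradation machinery, at 93.7 ± 6.98 and 62.5 ± 4.79 CPM (0.58). The ubiquitin conjugating enzyme UBE2J1 was lower, at 97.8 ± 3.74 CPM in soft gel and 164 ± 10.9 CPM on the rigid dish (log2 fold change -0.75, edgeR adjusted p = 0.00195). NPLOC4, a cofactor of the ATPase that extracts proteins from the ER, was at 292 ± 20.3 and 418 ± 19.96 CPM (-0.52), a call lost without soft gel 1 (adjusted p = 0.052).

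Of 22 other translocon, signal peptidase and oligosaccharyltransferase genes, 2 were higher (9.09%, against 15.4% of all genes) and 1 lower (4.55%, against 13.2%). The higher genes were SEC62 and TRAM1 (log2 fold changes 0.90 and 0.49) and the lower gene SEC61G (-0.58). The SEC62 and TRAM1 calls were lost without rigid dish 2 or 3 or soft gel 1 or 2 (adjusted p = 0.0569 to 0.0862), and the SEC61G call without rigid dish 2 (0.0587) or soft gel 1 (0.0608). Of 20 genes of COPII export and KDEL retrieval, 5 were higher (25.0%, against 15.4% of all genes) and none lower by edgeR (13.2% of all genes), with 1 lower at an unadjusted p below 0.05 and 1 by DESeq2. Without rigid dish 1 there were 4 higher and 3 lower, where 19.6% and 17.7% of all genes were called. The cargo receptor LMAN1 averaged 136 ± 25.9 CPM in soft gel and 83.4 ± 19.97 CPM on the rigid dish (log2 fold change 0.71), a call lost without rigid dish 2 or 3 or soft gel 1 or 2 (adjusted p = 0.0875 to 0.11). KDELR3, a receptor that returns ER proteins, averaged 15.8 ± 2.94 and 10.5 ± 0.526 CPM (0.59), a call lost without rigid dish 2 or 3 or soft gel 2 or 3 (0.0934 to 0.125).

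A further list held genes that process the sensors, related membrane-bound factors, and others such as the NF-Y subunits, YY1 and TXNIP. Of its 14 tested genes, 1 was higher and 1 lower (7.14% each, against 15.4% and 13.2% of all genes). MBTPS2, a protease that releases ATF6, averaged 64.9 ± 7.75 CPM in soft gel and 49.1 ± 1.86 CPM on the rigid dish (log2 fold change 0.40), a call lost without rigid dish 2 or 3 or soft gel 1 or 2 (edgeR adjusted p = 0.104 to 0.157). A GC correction (log2 fold change 0.14, adjusted p = 0.285) and a length correction (0.30, adjusted p = 0.0624) also ended the MBTPS2 call. RTCB, the ligase that joins the XBP1 exons after ERN1 has cut them, averaged 101 ± 7.55 CPM in soft gel and 147 ± 16.7 CPM on the rigid dish (-0.55), a call lost without rigid dish 2 or soft gel 1 or 2 (0.0552 to 0.0614).

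The called genes were also described by level, GC content and length. The 7 higher genes had low levels, with a median of 8.52 TPM on the rigid dish, against 99.6 TPM for the 3 lower genes and 69.7 TPM for the 29 others. The rigid dish level is also the denominator of the fold change. Its Spearman correlation with the log2 fold change, in mean CPM, was -0.44 over the 39 genes and -0.39 over all tested genes. Their median GC content was 40.3%, against 51.9% for the lower genes and 49.4% for the others. Across the 39 genes the log2 fold change had a Spearman correlation of -0.54 with GC content and 0.36 with gene length; over all tested genes these were -0.29 and 0.11. The genes share libraries and are not independent, so these are descriptions, and the part of GC content in the calls beyond the corrections above was not tested.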

How the data were processed

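RNA of 3 soft gel and 3 rigid dish libraries of DBTRG cells was sequenced from TRIzol extracts and TruSeq libraries, per the labels' protocols. HISAT2, HTSeq and hg38 are named in the submitters' processing notes. The authors deposited estimated counts, not whole for 11.3% to 13.0% of genes per library, and TPM values summing to 985477 to 991371. Their deposited comparison, whose name refers to DESeq2, holds a fold (ratio), its log2, and raw and adjusted p-values. Gene length is per the file headers. The deposited TPM did not follow this length, and the length behind it was not stated. In soft gel 1, SEC24D (4018 bases) had 47.5 CPM and 19.6 TPM, and DERL2 (4167 bases) had 41.1 CPM and 53.1 TPM. Neither quantifier nor strand setting was stated. Nothing in the labels says that replicates were separate cultures, so the spread behind each p-value may be technical.

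Counts were rounded, filtered with filterByExpr (minimum count 10), scaled by TMM and tested with edgeR 4.0.16 (limma 3.58.1, R 4.3.3) over all genes. The SE is the log2 fold change divided by the root of the F statistic. A library's 3 counts equal 0.116 to 0.143 CPM, for counting error only. Chi-square per gene between libraries of a group was 11.4 to 66.7, so none was a duplicate. Positions came from GENCODE 29 on hg38 (99.5% of genes matched) and promoters from RefSeq (GRCh38.p14). On simulated data (15786 genes, 200 changed), 10.2% of 1.5-fold and 64.3% of 2-fold changes were recovered, with 9.88% of calls false. In the data 28.6% of genes were called. The adjusted p depends on the share of genes changed, so the simulated rates may not hold for the real fit. The members and lists were chosen with earlier results of these data known. Named were every called member, HSPA5, HSP90B1, ATF6, ERN1, EIF2AK3, XBP1 and DDIT3, the member of each role that did not pass and had the largest fold change, and up to 2 called genes per direction of each other list with a mean of 5 CPM or more. Alternatives were other scalings and filters, DESeq2 1.42.0, limma on TPM, a replicate block and leaving out each library. Length and GC corrections were chosen after seeing the data.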

Additional observations from a re-analysis of the deposited data

How the results depend on the processing

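The number of all genes called was 4603, against 2313 and 2287 by limma on log2(TPM + 1) and log2(TPM + 0.1) and 1803 to 6164 on leaving out a library. Members called higher (7) numbered 4 by both limma fits and 3 to 12 on leaving out a library. Members called lower (3) numbered 1 with upper quartile factors and by both limma fits, and 0 to 5 on leaving out a library. They numbered 6 without a low-count filter and 6 by DESeq2. Higher and lower together, both limma fits called 12.8% of the tested members, against 14.4% and 14.2% of all genes. DESeq2 called 33.3% of them, against 32.9% of all genes. Without a low-count filter 32.5% of members were called, against 18.9% of 29366 genes, a set that includes low-count genes. The replicate block gave 10 members higher and 6 lower (41.0%, against 40% of all genes), with 6442 genes called. The block is a shared number only: same-numbered libraries correlated at 0.217, 0.00912 and 0.307 in their deviations. Soft gel 2 correlated best with rigid dish 1 (0.137). Directions reversed for ATF6 with the length (-0.019) and GC (-0.13) corrections, ERN1 with the length correction (-0.027), HSP90B1 with the GC correction (-0.025) and HERPUD1 by limma (0.12 and 0.12). On leaving out a library the log2 fold change ran from -0.060 to 0.32 for ERN1, -0.15 to 0.41 for DDIT3, -0.041 to 0.52 for HSP90B1 and -0.51 to 0.088 for HERPUD1. The cause was not tested. HSPA5 kept its call under 14 of 16 alternatives, and EIF2AK3, FKBP14 and DNAJC10 kept theirs under 10 or 11. HYOU1, ERO1B and CREB3L2 kept theirs under 9, and limma on TPM ended these 3 calls and those of EIF2AK3 and FKBP14. Among other genes, limma on TPM ended the calls of ATF4, LMAN1, MBTPS2, SEC62, SERPINH1, TRAM1, TRIB3 and UGGT2, and both corrections ended that of VLDLR. Across scalings and filters the median log2 fold change of all genes stayed between 0.01 and 0.09.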
